A study of Vitis vinifera with 24 samples.

Results

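The comparison described here is that of grapevine leaves given trehalose in the cold with leaves kept in the cold without it. It was defined by treatment label alone and holds 6 of the 24 RNA-seq libraries of the study. All leaves came from Vitis vinifera 'Thompson Seedless', grown as self-rooted greenhouse cuttings at 25 to 30 ℃. The trehalose+cold group (Tre+4℃ in the labels) had trehalose and 4 ℃ for 48 h, and the cold group had 4 ℃ for 48 h without trehalose. For comparison, leaves given trehalose alone for 48 h are set against untreated control leaves, for which the labels give no time. Leaves given trehalose with PEG6000 are set against leaves given PEG6000, and leaves given trehalose with NaCl against leaves given NaCl, all at 48 h. Each group had 3 libraries, which the labels call biological replicates. The labels give no dose of trehalose, NaCl or PEG6000, no order of application, and no statement on whether replicates were separate plants, so p-values cover the variation among these libraries only, which may be technical.

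Trehalose, a sugar of a pair of linked glucose units, is non-reducing and chemically stable. Plants make it through trehalose phosphate, which in Arabidopsis reports sucrose supply and inhibits an energy-sensing kinase of the SnRK family, and they break it down with trehalase. Leaves exposed to low temperature switch on a cold regulon through CBF/DREB transcription factors, which grapevine also has, and accumulate soluble sugars. PEG6000 is a polymer that lowers the water potential around the roots or tissue, and NaCl adds ion stress to an osmotic load.

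Expression was available as FPKM, fragment counts scaled by transcript length and by the mapped fragments of the library, so sequencing depth is unknown. FPKM summed to 620631 to 626298 in the trehalose+cold libraries and to 608911 to 614054 in the cold libraries. The 10 most abundant genes of each library held 11.02 to 11.28% of the FPKM in trehalose+cold libraries and 10.2 to 10.39% in cold libraries. Of 35840 genes in the table, 20053 reached at least 1 FPKM in at least 3 libraries and were tested. Genes carry identifiers only, which the sources used here do not pair with names or functions. The label "leaf" therefore could not be checked against marker genes, and shifts in cell type were not tested; in whole leaves, fewer cells of a type and less RNA per cell cannot be told apart. For the same reason genes are described by how they responded, and at most 2 identifiers per direction are given in a comparison.

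Trehalose changed the expression of many genes in the cold by a small amount and of few genes strongly. Of the genes tested, 8731 (43.5%) differed, with 5306 (26.5%) higher and 3425 (17.1%) lower in trehalose+cold leaves than in cold leaves. Among them 236 (1.18%) changed at least 2-fold: 170 genes (0.848%) rose and 66 (0.329%) fell, on the log2(FPKM + 1) scale used throughout. Of the called genes 87.5% differed by less than 1.5-fold. Changes of 4-fold or more were seen in 19 genes that rose and 5 that fell. Genes were called with limma at a Benjamini-Hochberg adjusted p below 0.05 over all 20053 genes. The direction over all genes depended on the scaling: 60.8% of calls were higher with trehalose as the FPKM stand, 55.1% after scaling to a common sum, 46.3% with median-of-ratios scaling and 48.1% after quantile normalization. Among genes changed at least 2-fold, the higher ones remained the larger number under all 4 scalings, at 64.7 to 72.0%.

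Both groups were uniform. Libraries of the same group differed by a root mean square log2 difference of 0.155 to 0.165 with trehalose and of 0.157 to 0.169 without, over the genes tested. Libraries of different groups differed by 0.331 to 0.341 in all 9 pairs. The difference between group means was 0.308 in the cold, against 0.267 for trehalose without stress, 0.452 for trehalose under NaCl and 0.951 for trehalose under PEG6000.

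**Figure D1:**
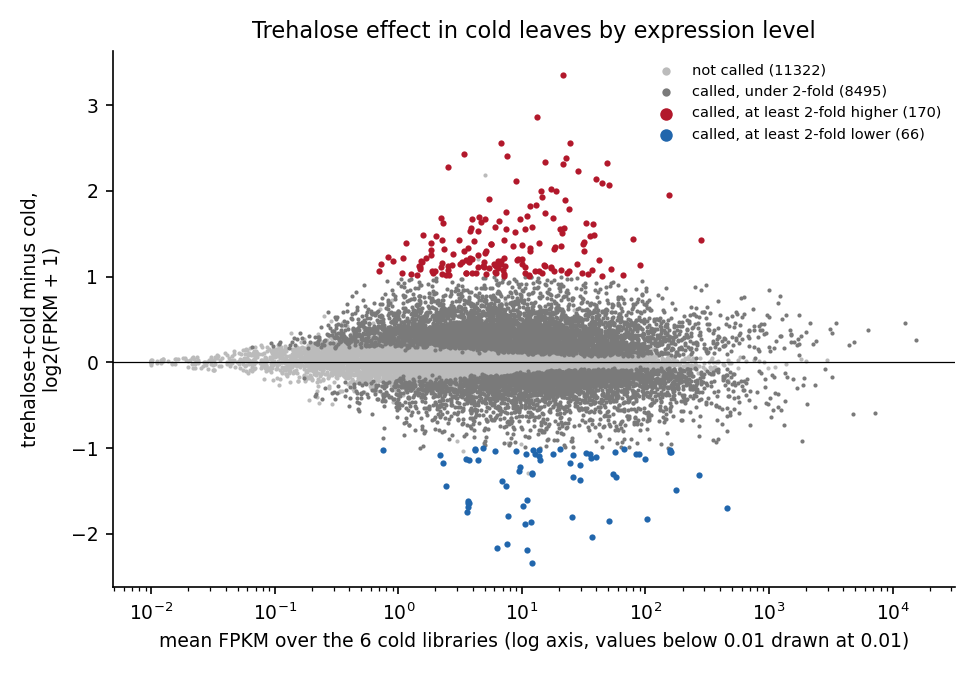
Each point is 1 of the 20053 genes tested, with its mean FPKM over the 6 cold libraries on a log axis and its difference between trehalose+cold and cold on the log2(FPKM + 1) scale. Most called genes lie under 2-fold, and the 170 genes that rose at least 2-fold reach further from 0 than the 66 that fell.

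Among genes that averaged 50 FPKM or more in the higher group, the largest rises were in gene models that were nearly silent in unstressed leaves. PT_newGene_27 was at 77.9, 88.0 and 79.5 FPKM in trehalose+cold leaves, against 16.2, 15.9 and 14.6 FPKM in cold leaves. The 3 libraries with trehalose were higher than the 3 without; that the groups not overlap was a condition for choosing this gene and the 3 that follow. Its log2 change was 2.32 (SE 0.08, limma adjusted p 3.42e-16). PT_newGene_23 was at 66.8, 65.4 and 66.1 FPKM with trehalose and at 14.8, 14.4 and 13.6 FPKM without, a log2 change of 2.14 (SE 0.06, limma adjusted p 1.92e-17).

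The same gene models behaved in the opposite way with trehalose under the other stresses. Under PEG6000, PT_newGene_27 averaged 5.21 ± 0.20 FPKM with trehalose and 323.2 ± 7.1 FPKM without (SD, n = 3 each), and PT_newGene_23 averaged 0.841 ± 0.066 FPKM with trehalose and 175.2 ± 1.3 FPKM without. Under NaCl, PT_newGene_27 averaged 1.18 ± 0.19 FPKM with trehalose and 8.58 ± 0.68 FPKM without. Without stress no library exceeded 1.15 FPKM for either gene, with 0.877 ± 0.27 FPKM in trehalose leaves and 0.812 ± 0.12 FPKM in control leaves for PT_newGene_27. The effect of trehalose without stress did not pass the test for either (limma adjusted p 0.778 for PT_newGene_27 and 0.408 for PT_newGene_23).

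The abundant genes with the largest falls were both several-fold higher in cold than in control leaves. Vitvi09g00285 was at 13.9, 14.1 and 13.6 FPKM in trehalose+cold leaves, against 59.0, 60.8 and 59.3 FPKM in cold leaves. The 3 libraries with trehalose lay close together and far below the others, a log2 change of -2.03 (SE 0.06, limma adjusted p 2.9e-17). Without stress the same gene was higher with trehalose, at 5.47 ± 0.27 FPKM against 3.28 ± 0.425 FPKM in control leaves (SD, n = 3), a log2 change of 0.60 (SE 0.06, limma adjusted p 1e-07). The direction of its trehalose effect thus differed between cold and unstressed leaves, and the difference was called (log2 -2.63, SE 0.09, limma adjusted p 4.32e-16).

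Vitvi18g00107 was at 22.4, 20.1 and 22.2 FPKM in trehalose+cold leaves and at 80.5, 78.5 and 81.0 FPKM in cold leaves, a log2 change of -1.84 (SE 0.05, limma adjusted p 1.73e-18). Trehalose lowered this gene in every setting. It averaged 6.58 ± 0.21 FPKM in trehalose leaves and 13.7 ± 1.0 FPKM in control leaves, 43.1 ± 2.5 FPKM with trehalose and 95.9 ± 3.0 FPKM without under PEG6000, and 43.55 ± 1.6 FPKM with trehalose and 107.0 ± 1.1 FPKM without under NaCl (SD, n = 3 each). Its fall was larger in the cold than without stress, with a difference of -0.89 on the log2 scale (SE 0.07, limma adjusted p 3.38e-10).

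**Figure D2:**
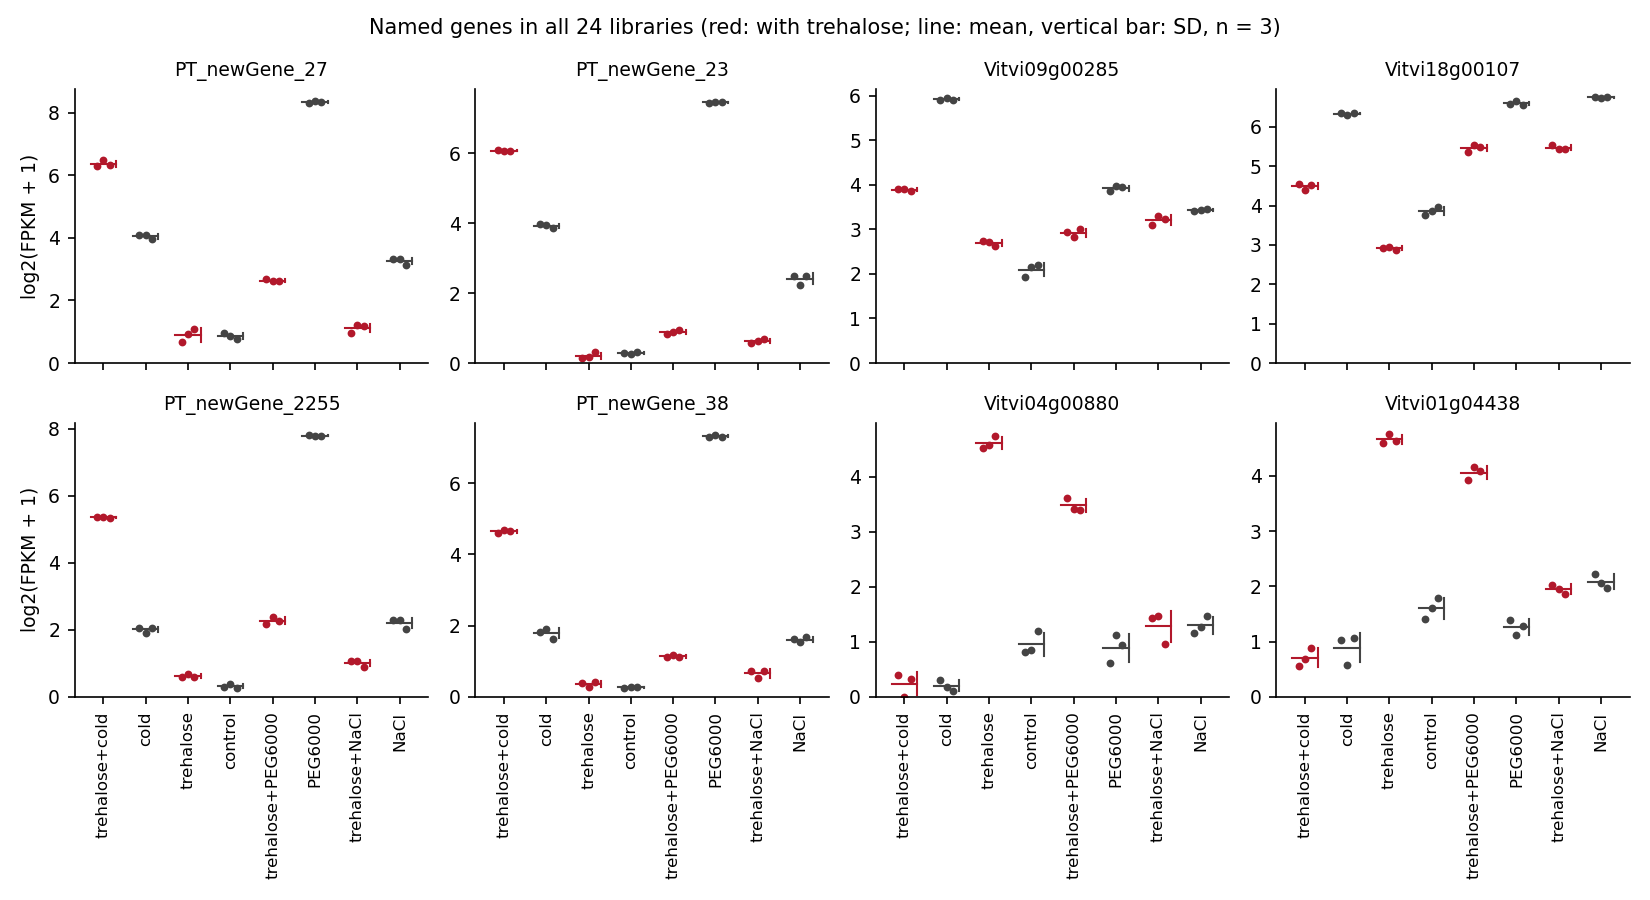
Values of the 8 named genes in all 24 libraries on the log2(FPKM + 1) scale, with trehalose in red and without in dark grey, each point a library, the line the mean and the bar the SD (n = 3). The 4 PT_newGene models are higher with trehalose in the cold and lower with trehalose under PEG6000. Vitvi04g00880 and Vitvi01g04438 respond to trehalose without stress and under PEG6000, but average below 1 FPKM in both cold groups.

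Genes were next divided by their mean FPKM over all 24 libraries. Calls were more frequent among abundant genes: below 1 FPKM 13.7% of 1973 genes were higher and 7.35% lower with trehalose, and at 100 FPKM or more 41.9% of 884 genes were higher and 39.4% lower, a split that was 39.6 and 42.4% after scaling to a common sum. Changes of 2-fold were not concentrated there, with 0.566% of the genes at 100 FPKM or more raised 2-fold and 1.08% of those from 5 to 20 FPKM. The 100 most abundant genes leaned upward, with 68 higher and 25 lower in trehalose+cold leaves and a median log2 change of 0.25, against 0.04 over all genes. That median stayed between 0.18 and 0.25 under the 4 scalings, and 1 of these genes rose 2-fold. The single most abundant gene of the study averaged 17023 ± 346 FPKM in trehalose+cold leaves and 14246 ± 258 FPKM in cold leaves (SD, n = 3), a log2 change of 0.26 (SE 0.03, limma adjusted p 2.68e-07). Without stress it averaged 13634 ± 133 FPKM in trehalose leaves and 16049 ± 197 FPKM in control leaves, a change in the other direction (log2 -0.24, limma adjusted p 1.94e-06).

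Identifiers of the second kind in the table, beginning with PT_newGene, made up 22 of the 170 genes raised 2-fold. Of the 475 that were tested, these 22 are 4.63%, and 0 fell 2-fold (the limma calls at any size included 71 lower), against 148 (0.756%) and 66 (0.337%) of 19578 Vitvi identifiers. The 22 became 23 or 24 under the other scalings. Of all PT_newGene models tested, 18.7% were higher and 14.9% lower in trehalose+cold leaves, against 26.5 and 17.1% of all genes. These were 17.9 and 19.2% against 21.8 and 25.2% with median-of-ratios scaling, and 15.2 and 22.5% against 20.7 and 22.3% after quantile normalization. The authors' estimation may have divided reads between near-identical or overlapping genes, which FPKM cannot resolve; they may not be independent genes.

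A few genes were below 1 FPKM in cold leaves and at 2 FPKM or above with trehalose. In all, 17 genes were at 2 FPKM or above in each trehalose+cold library while below 1 FPKM in each cold library. Of these, 11 also reached 2 FPKM in all 3 PEG6000 libraries, and 0 did so in all 3 control libraries. Of all genes tested, 76.4% reached that level in all 3 PEG6000 libraries and 73.3% in all 3 control libraries. The 17 genes were chosen for low values in cold leaves, so these shares are no matched background. PEG6000 raised 11 of the 17 at least 2-fold against control, where it raised 14.4% of all genes. The reverse, below 1 FPKM in each trehalose+cold library and at 2 FPKM or above in each cold library, was seen for 1 gene.

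Whether trehalose did the same in the cold as in unstressed leaves was tested directly, with 4 groups that share no library between the effects. A minority of the genes called in the cold were called in the same direction without stress. Of the 5306 genes higher with trehalose in the cold, 1373 (25.9%) were also higher with trehalose alone, 711 (13.4%) were lower and 3222 were not called; over all genes 16.7% were higher and 12.3% lower with trehalose alone. Of the 3425 genes lower in the cold, 917 (26.8%) were also lower alone, 339 (9.9%) were higher and 2169 were not called. Over the 20053 genes, which share libraries and are no replicates, both log2 effects had a Pearson correlation of 0.16 and a Spearman correlation of 0.17.

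Few genes changed at least 2-fold in both settings. Trehalose alone raised 205 genes (1.02%) and lowered 22 (0.11%) at least 2-fold. In common with the 170 genes raised in the cold were 10 genes, 5.88% of the cold list and 4.88% of the other. The count of shared genes depended on the pseudocount, with 59 genes at 0.1 and 96 at 0.01. Among the 205 genes, 74 (36.1%) were higher and 28 (13.7%) lower with trehalose in the cold, against 26.5 and 17.1% of all genes, with a median log2 change of 0.14. The 10 shared genes had a median of 27.9 FPKM in trehalose+cold leaves and 7.23 FPKM in cold leaves, and of 25.8 FPKM in trehalose leaves and 9.06 FPKM in control leaves.

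The test of the difference between both effects called 7137 genes (35.6%), with a more positive effect in the cold for 3950 (19.7%) and a more negative one for 3187 (15.9%). With median-of-ratios scaling these were 3560 and 3954, and after scaling to a common sum 3490 and 3661. Among calls of any size, no surplus in either direction thus held under all scalings. Among differences of at least 2-fold, the more negative effects were the larger number under every scaling, with 43.7 to 46.9% more positive. This order turned with the pseudocount and the filter. At a pseudocount of 0.1, 528 were more positive and 508 more negative, and at 0.01 these were 547 and 517. Requiring 5 FPKM on average gave 136 and 112, so at this size too no surplus held under all settings. Among the 170 genes raised in the cold, 161 had a more positive effect there than without stress, and among the 66 lowered genes 62 had a more negative one. These genes were chosen on the same cold libraries, which raises both counts.

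Among genes that averaged 20 FPKM or more in at least 1 of the 4 groups, PT_newGene_2255 had the largest positive difference. It was at 40.7, 40.1 and 39.9 FPKM in trehalose+cold leaves, against 3.20, 2.78 and 3.17 FPKM in cold leaves, and at 0.502, 0.600 and 0.501 FPKM in trehalose leaves, against 0.233, 0.293 and 0.191 FPKM in control leaves. In both settings the libraries with trehalose lay above those without, but in unstressed leaves all 6 stayed below 1 FPKM. The difference of the effects was 3.04 on the log2 scale (SE 0.10, limma adjusted p 3.44e-16). PT_newGene_38 was at 23.45, 24.5 and 24.1 FPKM in trehalose+cold leaves and at 2.56, 2.71 and 2.11 FPKM in cold leaves. Unstressed, it averaged 0.285 ± 0.069 FPKM in trehalose leaves and 0.199 ± 0.0099 FPKM in control leaves (SD, n = 3), and the difference was 2.76 (SE 0.10, limma adjusted p 1.9e-15).

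The largest negative differences among such genes belonged to ones that trehalose raised in unstressed leaves and that were barely expressed in the cold. Vitvi04g00880 was at 0.313 and 0.256 FPKM and listed at 0 in the 3 trehalose+cold libraries, against 0.237, 0.134 and 0.0776 FPKM in the cold libraries, so these groups overlapped. In trehalose leaves it was at 22.02, 22.75 and 25.7 FPKM, against 0.756, 0.811 and 1.27 FPKM in control leaves. The difference was -3.62 (SE 0.20, limma adjusted p 1.74e-12). Vitvi01g04438 was at 0.477, 0.604 and 0.852 FPKM in trehalose+cold leaves and at 1.03, 0.495 and 1.10 FPKM in cold leaves, which also overlapped. It averaged 24.3 ± 1.4 FPKM in trehalose leaves and 2.05 ± 0.40 FPKM in control leaves (SD, n = 3), and the difference was -3.24 (SE 0.17, limma adjusted p 7.28e-13).

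**Figure D3:**
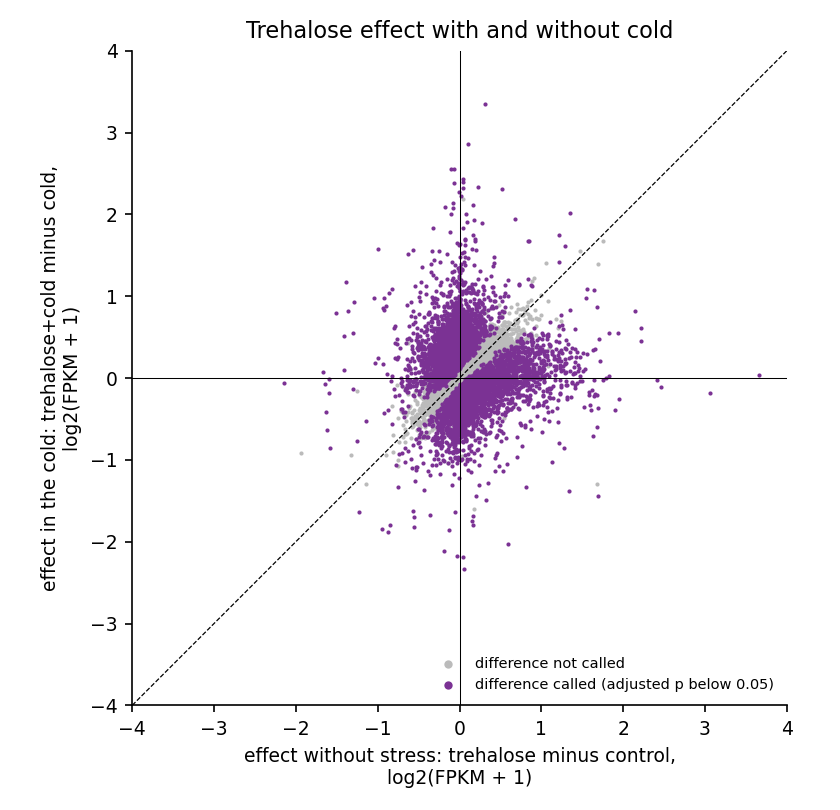
Each point is 1 gene, with the effect of trehalose without stress across and the effect in the cold upward, both on the log2(FPKM + 1) scale; purple marks the 7137 genes whose effects differed at an adjusted p below 0.05. Many of the largest effects lie near one axis, away from the dashed line of equal effects, and the correlation across genes is 0.16.

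The genes that trehalose raised in the cold were then looked up under the other stresses, in libraries that enter neither cold group. Most of them were genes that PEG6000 raises. Of the 170 genes, 118 (69.4%) rose at least 2-fold under PEG6000 against control, where 14.4% of all tested genes did, and 74 (43.5%) rose at least 2-fold under NaCl, where 5.87% did. The 118 genes are 4.09% of the 2882 genes raised by PEG6000. The share raised by PEG6000 was 67.65 to 71.43% when any 1 library was left out, 67.65 to 70.21% under the other scalings, and 56.7 and 50% with pseudocounts of 0.1 and 0.01, where 17.7 and 18.1% of all genes were raised. Genes lowered 2-fold by PEG6000 made up 21 of the 170 (12.4%), against 7.71% of all genes.

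Among genes raised by PEG6000, the overlap grew with the size of the rise. Of 1632 genes with a PEG6000 log2 change from 1 to below 2, 1.04% rose 2-fold with trehalose in the cold; of 718 genes from 2 to below 3, 3.48% did; of 309 from 3 to below 4, 8.09%; and of 130 from 4 to below 5, 13.8%. Among the 97 genes with a PEG6000 log2 change of 5 or more, 33 (34.0%) rose 2-fold with trehalose in the cold and 2 fell, and their median log2 change in the cold was 0.48. Among the 7894 genes from 0 to below 1, 0.253% rose and 0.253% fell. On the lowered side, 0.142% of 7723 genes from -1 to below 0 rose 2-fold. The share was 1.17% of 1370 genes from -2 to below -1 and 2.78% of 180 genes below -2. NaCl gave no such steady order, with 5.79% of 933 genes from 1 to below 2, 9.05% of 210 genes from 2 to below 3 and 1 of 40 genes at 3 or more. On this log scale genes with very low values in every group cannot reach 2-fold in either comparison, so such genes enter neither list.

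**Figure D4:**
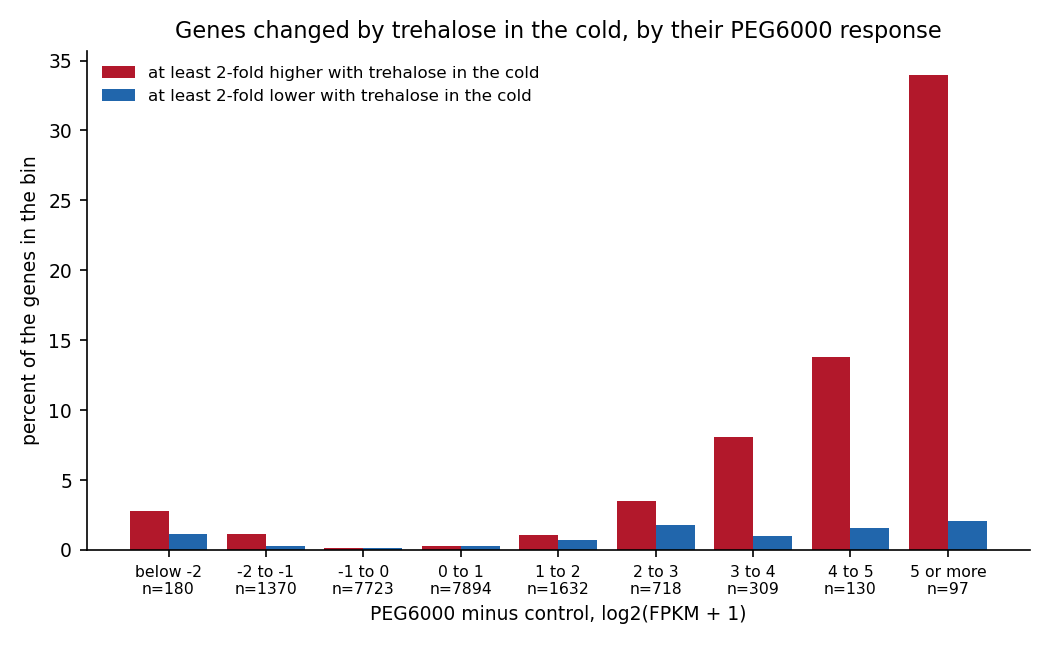
Tested genes are grouped by their PEG6000 response (log2 difference from control, across), and the bars give the percentage of each group that trehalose raised (red) or lowered (blue) at least 2-fold in the cold. The share raised climbs to 34.0% of the 97 genes with a PEG6000 log2 change of 5 or more, while the share lowered stays at 2.06% or less.

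Most of these genes were lower, not higher, with trehalose when the stress was PEG6000. Of the 170 genes raised in the cold, 104 (61.2%) fell at least 2-fold with trehalose under PEG6000, against 8.7% of all genes, and 53 (31.2%) fell at least 2-fold with trehalose under NaCl, against 3.58%. Rises of 2-fold were seen for 7 of the 170 under PEG6000 and for 7 under NaCl, against 10.9 and 0.863% of all genes. These effects share the PEG6000 and NaCl libraries with the rises against control. Many of the 170 were high there, which favours falls, so all genes are no matched background. With trehalose under PEG6000, the median log2 effect was -2.9 for the 118 genes that PEG6000 raised and 0.16 for the other 52. The median log2 effect of trehalose on the 170 genes was 1.24 in the cold, 0.04 without stress, -0.56 under NaCl and -2.003 under PEG6000, and over all genes it was 0.04, 0.00, -0.04 and 0.08. Between cold and PEG6000 the effects differed for 13717 genes (68.4%), with the cold effect more positive for 6411 (32%) and more negative for 7306 (36.4%), and for 6911 and 6805 with median-of-ratios scaling. Between cold and NaCl they differed for 9311 genes (46.4%), with the cold effect more positive for 6424 (32%) and more negative for 2887 (14.4%). This split was 4405 and 4498 with median-of-ratios scaling, 4276 and 5035 after quantile normalization, and 6397 and 2867 after scaling to a common sum. Of the differences between cold and NaCl of at least 2-fold, 70.9 to 80.9% were more positive in the cold under the 4 scalings.

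The 118 genes raised both by trehalose in the cold and by PEG6000 were low in unstressed leaves. Their median level was 9.82, 10.3 and 10.5 FPKM in the 3 trehalose+cold libraries, against 3.40, 3.255 and 3.16 FPKM in the 3 cold libraries. In the other groups the median was 0.420 FPKM in trehalose leaves and 0.454 FPKM in control leaves, 1.67 FPKM with trehalose and 27.0 FPKM without under PEG6000, and 0.7755 FPKM with trehalose and 3.02 FPKM without under NaCl. The rises in trehalose+cold and in PEG6000 leaves chose this set. Mean FPKM was lower in trehalose+cold than in PEG6000 leaves for 95 of the 118, and PEG6000 leaves were the higher for 64.2% of all genes. Cold leaves were themselves above control for this set, with a median log2 change of 1.21; this comparison shares the cold libraries with the trehalose effect.

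The other 52 genes raised in the cold had a different profile. Their median was 9.98, 9.88 and 10.4 FPKM in the trehalose+cold libraries, against 3.74, 4.33 and 4.67 FPKM in the cold libraries. It was 13.5 FPKM in trehalose leaves and 6.95 FPKM in control leaves, so that both unstressed groups lay above cold leaves in the median. The 52 genes were chosen for lower values in cold than in trehalose+cold leaves and for no 2-fold rise under PEG6000 against control. Both conditions favour this order and a profile unlike that of genes raised by PEG6000. The median log2 effect of trehalose on the 52 genes was 1.14 in the cold, 0.18 without stress, 0.20 under NaCl and 0.16 under PEG6000.

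The 66 genes lowered by trehalose in the cold were highest in cold leaves, in the median. Their median was also lower in all 6 groups outside the cold than in either cold group. For PEG6000 leaves it was only slightly lower than for trehalose+cold leaves, at 6.99 against 7.44 FPKM. Mean FPKM was higher in PEG6000 than in trehalose+cold leaves for 30 of the 66, and for 64.2% of all genes. They were chosen for higher values in cold than in trehalose+cold leaves, which favours a peak in cold leaves. Their median was 7.47, 7.91 and 7.35 FPKM in the 3 trehalose+cold libraries, against 18.9, 18.5 and 18.3 FPKM in the 3 cold libraries, 2.35 FPKM in trehalose leaves and 2.515 FPKM in control leaves. Of the 66, 32 (48.5%) rose at least 2-fold under PEG6000 and 13 (19.7%) under NaCl, so that genes raised by PEG6000 were more frequent than the background of 14.4% in both lists. With trehalose under PEG6000, 20 (30.3%) of the 66 fell and 10 (15.2%) rose at least 2-fold, against 8.7 and 10.9% of all genes. The median log2 effect of trehalose on these genes was -1.18 in the cold, -0.09 without stress, -0.10 under NaCl and -0.28 under PEG6000.

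**Figure D5:**
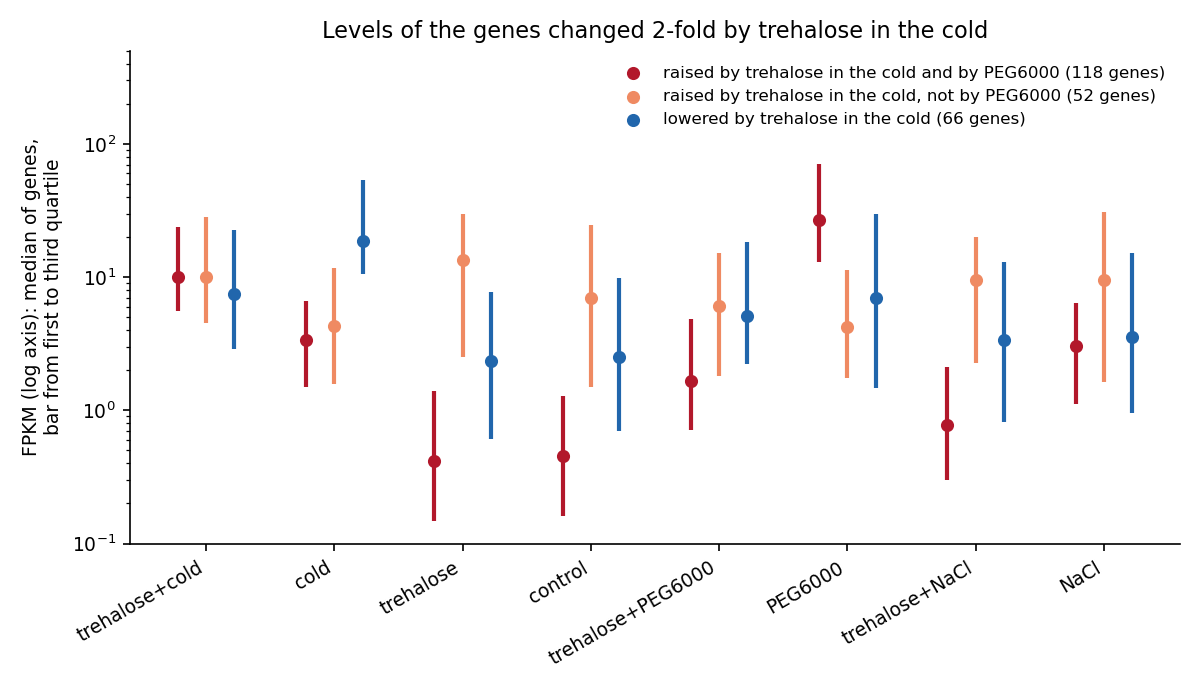
Median FPKM (points, log axis) and quartiles (bars) over the genes of 3 lists in the 8 groups, using the mean of 3 libraries per gene. The 118 genes raised by trehalose in the cold and by PEG6000 peak in PEG6000 leaves, at a median of 27.0 FPKM, and the 66 lowered genes peak in cold leaves. Each list was chosen in part on the libraries where it peaks, which favours these peaks.

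Genes lowered by the other stresses moved mostly upward with trehalose in the cold, by small amounts. Of the 1546 genes lowered 2-fold by PEG6000, 865 (56.0%) were higher and 190 (12.3%) lower in trehalose+cold leaves, against 26.5 and 17.1% of all genes, with a median log2 change of 0.22. Of the 193 genes lowered 2-fold by NaCl (0.962% of those tested), 115 (59.6%) were higher and 26 lower, with a median of 0.27. Under the other scalings these medians were 0.17 to 0.21 and 0.22 to 0.27, and the higher genes numbered 782 to 834 and 107 to 114. The 2882 genes raised by PEG6000 had no such lean, with 903 (31.3%) higher, 679 (23.6%) lower and a median log2 change of 0.04, which became 0 with 791 higher and 844 lower genes under median-of-ratios scaling. The 1178 genes raised by NaCl had 453 (38.5%) higher, 242 (20.5%) lower and a median of 0.10.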

How the data were processed

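The 24 leaf libraries were deposited as 1 table of FPKM values per gene, computed by the authors, with a column for each library. Per the submitters' processing notes, the software included StringTie 2.1.3b, HISAT2 2.1.0, fastp 0.20.0 and SAMtools 1.9, with no role stated. For the genome build, the annotation and the use of strand, nothing is given in the sources used here. Between the first trehalose+cold and the first cold library, FPKM ratios of 2022 genes below 0.2 FPKM did not pile up at steps (at most 2.47% within any 2% range), so whole reads were not recovered and depth is unknown.

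Columns were assigned by name, with 0 left unused. Of 35134 Vitvi and 706 PT_newGene identifiers, 0 matched the RefSeq gene table, so no sequences or gene lists were used. Values were taken as log2(FPKM + 1), which understates changes of low genes, and fitted with limma 3.58.1 in R 4.3.3 (lmFit, eBayes with trend; 8 group means, 16 residual degrees of freedom), with two-sided p-values adjusted by Benjamini-Hochberg. Differences between trehalose effects were contrasts of the same fit. Figures used Python 3.11.15 and matplotlib 3.10.9.

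Named genes are the 2 called genes per direction with the largest change, no overlap between libraries and 50 FPKM or more on average in the higher group; for the difference from trehalose alone, 20 FPKM or more in the highest of 4 groups and no overlap in at least 1 of both effects. The comparison, gene groups and rules were chosen with earlier results of these data known. Alternatives covered the pseudocount, the filter, 3 scalings, the variance model, sample weights, the groups fitted, the replicate number as a block, and leaving out each library.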

Additional observations from a re-analysis of the deposited data

Results flagged for a closer look

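The effect of trehalose in the cold differed from that in other settings by a test of the difference itself. Against trehalose without stress, limma called a more positive effect in the cold for 3950 genes and a more negative one for 3187. Against trehalose under NaCl the counts were 6424 and 2887, and against trehalose under PEG6000 they were 6411 and 7306. Under some scalings these splits turned: median-of-ratios gave 3560 and 3954 without stress, 4405 and 4498 under NaCl and 6911 and 6805 under PEG6000. Quantile normalization turned only the split under NaCl (4276 and 5035), with 3513 and 3257 without stress and 6076 and 7446 under PEG6000. A common sum turned the split without stress (3490 and 3661), not those under NaCl (6397 and 2867) and PEG6000 (5816 and 7868). Of the differences from NaCl of at least 2-fold, 70.9 to 80.9% were more positive under the 4 scalings. For single genes, the log2 difference from the effect without stress was 3.04 for PT_newGene_2255 (higher with trehalose in 3 of 3 cold libraries), 2.76 for PT_newGene_38 (also 3 of 3), -3.62 for Vitvi04g00880 and -3.24 for Vitvi01g04438 (both overlapping between the cold groups). All of these tests share the 6 cold libraries.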

How the results depend on the processing

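The number of genes called between trehalose+cold and cold leaves, 8731, lay between 6946 and 9425 under the other pseudocounts, filters, scalings and models, and was 236 when a 2-fold change was also required. Counts of 2-fold changes depended on the pseudocount and the filter. Pseudocounts of 0.1 and 0.01 gave 462 and 586 raised genes, 143 and 174 lowered genes, and 262 and 293 raised genes shared with PEG6000, where the chosen pseudocount gave 170, 66 and 118. Requiring 5 FPKM on average, which leaves fewer genes to test, gave 111, 41 and 78. This filter also turned the split of the difference between the effects in the cold and under PEG6000. It gave 4698 genes with a more positive effect in the cold and 4518 with a more negative one, against 6411 and 7306. Over all genes tested, the median log2 effect was -0.012 with median-of-ratios scaling and -0.018 after quantile normalization, against 0.038; the cause was not tested. Leaving out 1 library at a time, so that a group of 2 shared the spread of all groups, gave 7845 to 7962 called genes, 4792 to 4893 higher and 2980 to 3125 lower, 164 to 181 raised and 64 to 67 lowered 2-fold, 112 to 125 shared with PEG6000, 6484 to 6666 for the difference from trehalose alone, 8765 to 8976 for NaCl and 13300 to 13832 for PEG6000. The named genes kept their direction and their side of the threshold under each alternative that tested them; Vitvi04g00880 averaged below 5 FPKM and was not tested under that filter.

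Same-numbered libraries of both cold groups deviated together with correlations of 0.0111, 0.0715 and 0.0703, so the numbers were not treated as pairs, although each library correlated best with its own number. With the replicate number as a block 8664 genes were called, against 8731. Depth is unknown, so no counting error can be given.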
